A study of Homo sapiens with 9 samples.

Results

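RNA polymerase II (RNAPII) peaks were examined at 6 genes that are transcribed by RNA polymerase III: RN7SK, RMRP, RPPH1, RN7SL1, RN7SL2 and VTRNA1-1. The genes were chosen by name for their known polymerase, with earlier results of these data known. A peak was assigned to a gene when any base of it lay within 1 kb of the gene on GRCh37. These 6 are counted among 15797 genes of at most 500 bp, all annotated except RPPH1 and RN7SL1, which were placed by sequence match. Of the peaks in all 5 lists, 29 lay near the 6 genes. RNAPII ChIP-seq (chromatin immunoprecipitation and sequencing) had been carried out in HEK293, a human embryonic kidney cell line. In the hairpin arm, the cells were infected with lentivirus carrying a control shRNA or 1 of 2 hairpins against the DNA helicase gene RECQL5, named shRNA5 and shRNA7. In the doxycycline arm, HEK293T-Rex cells carried a plasmid with full-length RECQL5 behind a doxycycline-inducible promoter, and received 0.0 or 1.0 ng/ml doxycycline. Both doxycycline lists come from cells with the plasmid, so the list without the drug is not one of unmodified HEK293 cells. Each of the 5 RNAPII peak lists rests on 1 library, so there is no replicate check and no test of any difference given here.

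The 6 RNAs have known housekeeping roles. The 7SK RNA (RN7SK) holds the elongation kinase P-TEFb in an inactive particle, and so ties an RNA polymerase III product to RNAPII elongation. RMRP and RPPH1 encode the RNA subunits of RNase MRP and RNase P, which process ribosomal and transfer RNA precursors. RN7SL1 and RN7SL2 encode 7SL, the RNA of the signal recognition particle, and VTRNA1-1 encodes an RNA of the vault particle. RN7SK, RMRP and RPPH1 have promoters that lie wholly upstream of the gene, with a TATA box and a proximal sequence element bound by SNAPc. The RNAPII genes for the spliceosomal small nuclear RNAs (snRNAs) use SNAPc as well. The vault and 7SL genes also use elements inside the transcribed sequence.

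The 100 bases before each start are shown because a TATA box marks the polymerase III promoters of the SNAPc type. They were read from GRCh37 in the 5′ to 3′ direction of the gene, and capitals mark TATA, or the run TATATA at RN7SK, between positions −40 and −18 before the start.
RN7SK (chr6, plus strand): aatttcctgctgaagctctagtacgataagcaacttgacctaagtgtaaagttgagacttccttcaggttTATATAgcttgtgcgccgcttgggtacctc
RMRP (chr9, minus strand): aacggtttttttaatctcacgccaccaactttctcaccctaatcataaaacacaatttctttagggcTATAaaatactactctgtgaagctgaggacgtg
RPPH1 (chr14, minus strand): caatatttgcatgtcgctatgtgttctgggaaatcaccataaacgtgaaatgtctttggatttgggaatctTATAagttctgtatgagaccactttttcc
VTRNA1-1 (chr5, plus strand): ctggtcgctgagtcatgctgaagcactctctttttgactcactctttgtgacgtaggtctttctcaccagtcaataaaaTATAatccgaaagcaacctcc
RN7SL1 (chr14, plus strand): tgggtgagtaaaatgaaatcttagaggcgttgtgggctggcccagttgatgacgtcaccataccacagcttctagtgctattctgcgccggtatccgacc
RN7SL2 (chr14, minus strand): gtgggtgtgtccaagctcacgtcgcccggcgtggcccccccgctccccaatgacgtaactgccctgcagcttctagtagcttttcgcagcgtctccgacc
The letters TATA began at −30 in RN7SK, −33 in RMRP, −29 in RPPH1 and −21 in VTRNA1-1. Neither 7SL gene held them in this window. On the gene's own strand, TATA stood in the same window of 8.23% of 15791 other genes of at most 500 bp and of 6.72% of protein-coding starts.

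An element inside the gene was searched for with the letters GTTCGANNC, a short form of box B, on both strands. VTRNA1-1 was the 1 member that held a match, on its own strand, and it is shown in capitals in the whole gene (chr5:140090860-140090958).
VTRNA1-1: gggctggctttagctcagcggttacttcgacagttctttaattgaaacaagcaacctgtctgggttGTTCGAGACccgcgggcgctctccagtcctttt
The match began at position 67 of 99. Among the other genes of at most 500 bp, 0.633% held such a match. A match of letters is a description of the sequence and not a measured binding site.

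Repeated sequence limits where short tags can be placed at some of the genes. RN7SL1 lies at chr14:50053298-50053594 on the plus strand and RN7SL2 at chr14:50329271-50329567 on the minus strand. Of the 262 runs of 36 bases (the tag length set for peak calling) inside RN7SL1, 1 occurred once in the genome, or 0.382%. The share was 6.11% in RN7SL2 and 16.9% in RN7SK, and it was 100% in RMRP, RPPH1 and VTRNA1-1. Over the gene and 1 kb on either side together, the shares ranged from 83.8% to 98.1%. Most tags placed beside the repeated genes could thus be told apart by sequence. Per the study's methods, the best alignment of a tag was kept, and tags in regions blacklisted for mappability were removed. How a tag with several equally good matches was treated is not stated in the sources used here. The peaks at RNU1-3 and RNU1-4, genes for the U1 snRNA, held 897 and 930 tags with control shRNA. No 36-base run in or within 1 kb of these genes was unique. Tags with more than 1 match thus appear to have been kept.

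Of the 6 genes, 4 had a protein-coding start within 1 kb, each on the opposite strand in a head-to-head arrangement. RN7SK (chr6:52860418-52860748) began 336 bp from the start of GSTA4, a glutathione transferase gene. RMRP (chr9:35657751-35658014) began 273 bp from CCDC107, and the annotated gene ARHGEF39 lay beyond it. RPPH1 (chr14:20811241-20811571) began 203 bp from PARP2, which encodes a poly(ADP-ribose) polymerase. It also lay inside a long non-coding RNA gene, ENSG00000259001, that was annotated on its own strand and started 273 bp before RPPH1. RN7SL1 began 200 bp from the most proximal start of RPS29, a ribosomal protein gene, and lay inside the annotated RPS29 gene. RPPH1 and RN7SL1 were placed by sequence match, since the annotation used here does not carry these names. RPPH1 was found from its copy RPPH1-3P at 77.8% identity beside PARP2, and RN7SL1 from RN7SL2 at 98.7% identity.

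On the far side, the nearest coding starts were 45765 bp away at RN7SK (ENSG00000288614), 7086 bp at RMRP (SIT1), 10100 bp at RPPH1 (CCNB1IP1) and 12103 bp at RN7SL1 (a distal start of RPS29).

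The remaining genes had no coding start within 10 kb. RN7SL2 lay 10028 bp from the start of NEMF and 30230 bp from ARF6. On the opposite strand a long non-coding RNA, ENSG00000278002, started 223 bp upstream of it, and RN7SL2 lay inside another, ENSG00000282885. VTRNA1-1 lay 10828 bp from ZMAT2 and 74861 bp from PCDHA1. A long non-coding RNA on the same strand, ENSG00000292256, started 60 bp before VTRNA1-1.

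RNAPII peaks lay near nearly all of the genes in every list. A peak within 1 kb was found for 5 of 6 genes with control shRNA (95% Wilson interval 43.6% to 97%), 6 with shRNA5 and 6 with shRNA7. The count was 5 of 6 without doxycycline and 6 of 6 with it. RN7SL2 had no peak with control shRNA, and VTRNA1-1 had none without doxycycline. With the hairpin lists cut to the 5287 strongest peaks, the length of the control list, RN7SK had no peak with shRNA5, and RN7SK and RN7SL2 had none with shRNA7. Over the 29 peaks the false discovery rate was 0% to 2.99%, and fold enrichment over the local background was 5.68 to 102.64. RN7SK, RMRP, RPPH1 and RN7SL1, the 4 genes with a coding start close by, had a peak in all 5 lists. Among the other genes of at most 500 bp, the share with a peak within 1 kb was 3.54% with control shRNA, 8.73% with shRNA5, 12% with shRNA7, 10.8% without doxycycline and 8.25% with doxycycline.

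The share of short genes near a peak differed with their distance from coding starts. Of 818 short genes with a coding start within 1 kb, 26.9% were near a peak with control shRNA, 47.9% with shRNA5, 56.6% with shRNA7, 56.7% without doxycycline and 50.7% with it. Of 11677 with no coding start within 10 kb, the shares in the same order were 0.985%, 3.72%, 5.69%, 5.42% and 3.77%. Short genes with a peak in all 5 lists made up 25.7% of the first class and 0.805% of the second. RN7SL2 and VTRNA1-1 are like the second class in their distance from coding starts, and each was near a peak in 4 lists.

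The lists differed in the number of peaks and of tags in them, which bears on every count given here. They held 5287 peaks with control shRNA, 23698 with shRNA5, 32124 with shRNA7, 47060 without doxycycline and 33900 with doxycycline. For the hairpin arm, the study's methods describe longer lists than these, most of all for the control, so a missing peak is one missing from the list as deposited. The sum of tags in peaks ranged from 842310 with control shRNA to 6698771 with shRNA7. The smallest peak held 35 tags with control shRNA and 9 without doxycycline. According to the study's methods, libraries compared with each other had similar numbers of reads, and the hairpin libraries had more than the doxycycline ones. Exact totals are not given in the sources used here, so tags were compared within an arm and beside the coding genes of the same lists. Intervals on tags (exact Poisson) and shares cover counting error only.

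**Figure D1:**
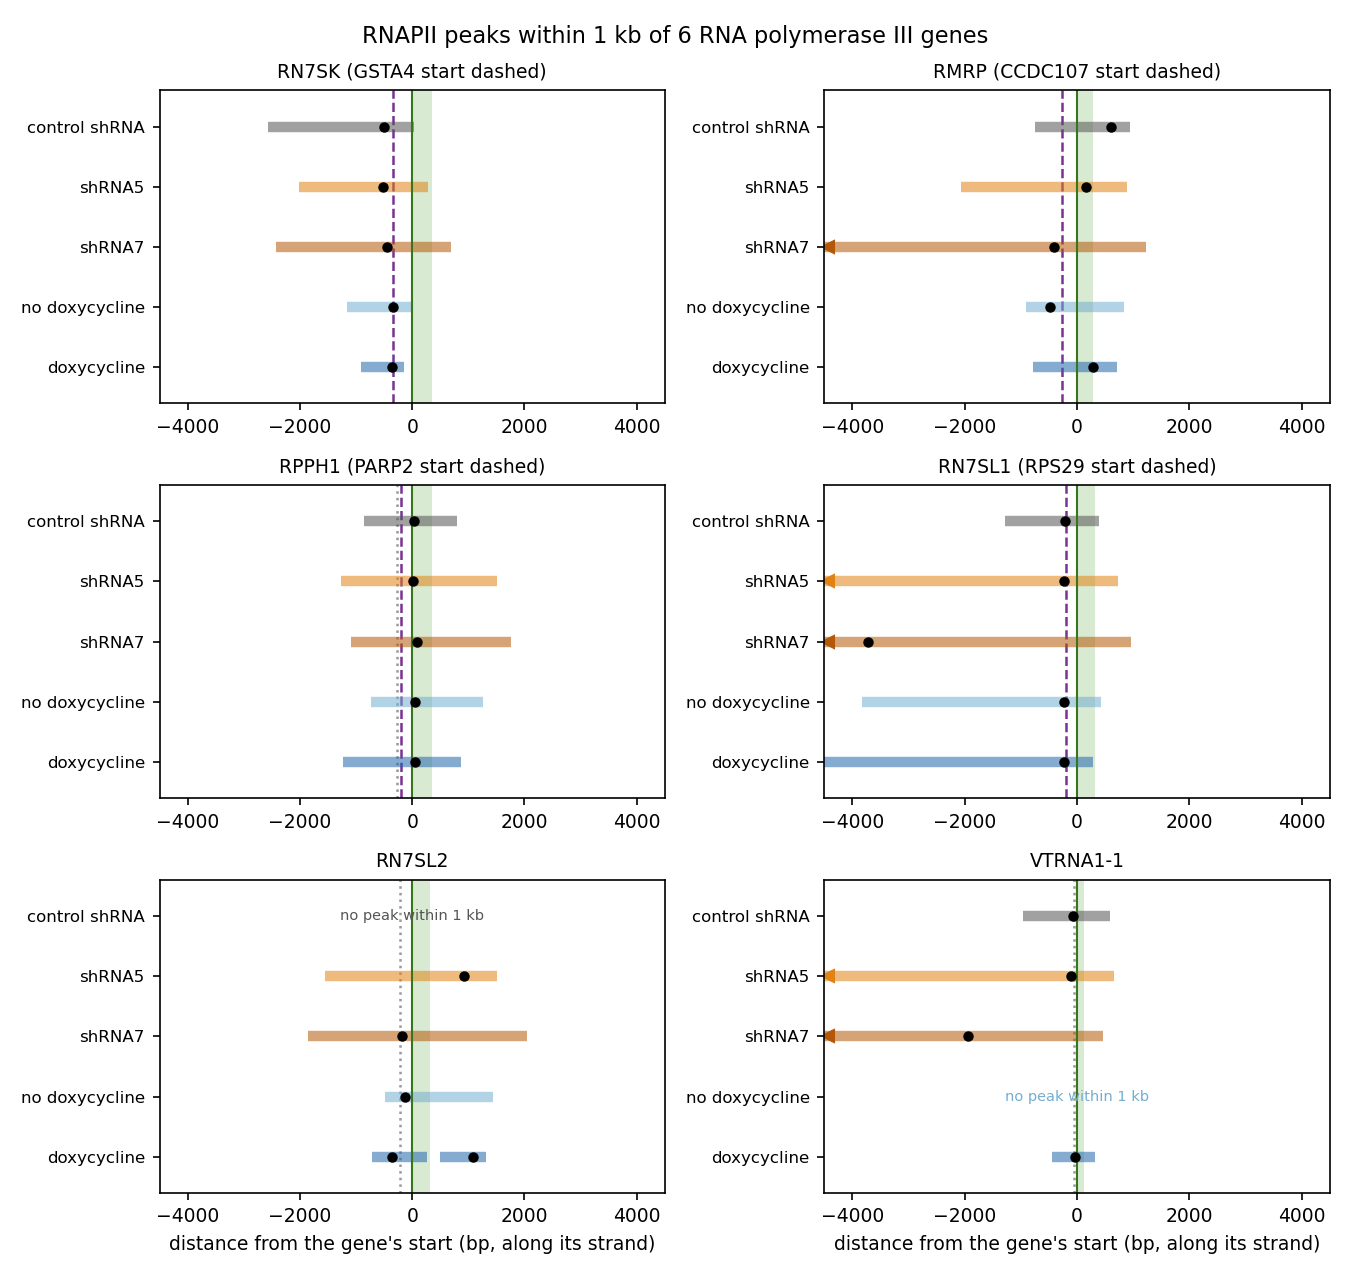
RNAPII peaks (bars) and their summits (black dots) in the 5 lists, by distance in bp from the start of each of the 6 genes along its strand. The green line and band mark the gene, the purple dashed line the nearest coding start and the grey dotted line a long non-coding RNA start, and an arrow marks a bar that runs past the axis. Summits at RN7SK lie at the GSTA4 start or beyond it, and those at RPPH1 lie 9 to 82 bp inside the gene.

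At RN7SK, the summits of the RNAPII peaks lay on the GSTA4 side. The peak held 140 tags with control shRNA, 147 with shRNA5 and 223 with shRNA7, and 63 tags without and 41 with doxycycline. The summit lay 504, 523 and 444 bp before RN7SK in the hairpin arm, and 346 and 361 bp before it in the doxycycline arm. All 5 summits were nearer to the GSTA4 start, from which they were 10 to 187 bp away. From 67.9% to 86.7% of each peak's length lay in the GSTA4 gene. In both doxycycline lists the peak ended before RN7SK, by 12 bp without the drug and 148 bp with it. With control shRNA it reached 29 bp into the gene, and with shRNA7 it covered the whole gene. The low share of unique 36-base runs inside RN7SK (16.9%) stands beside this, and its part in the position of the peaks was not tested.

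At RMRP, the RNA gene of RNase MRP, the summits fell on both sides of the start. The peak held 64 tags with control shRNA, 206 with shRNA5 and 753 with shRNA7, and 46 tags without and 70 with doxycycline. With control shRNA its significance score, which is the −log10 of the p-value of the peak caller times 10, was 51.24. The lowest score in that list was 50, and 3.7% of its peaks scored no higher than RMRP. In the other lists the peak's score percentile was 81.5 to 92.1. The summit lay 604 bp past the start with control shRNA, which is beyond the end of the gene, 151 bp past it with shRNA5 and 286 bp past it with doxycycline, all nearer to the start of RMRP than to that of CCDC107. With shRNA7 and without doxycycline it lay 409 and 475 bp before RMRP, nearer to CCDC107. The shRNA7 peak was 9059 bp long, of which 77% lay in ARHGEF39 and 35.6% in CCDC107, as against 1683 bp in total with control shRNA. All 5 peaks covered the whole of RMRP, where each 36-base run is unique.

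RPPH1, the RNA gene of RNase P, was the gene whose summits stayed on the RNA gene. Its peak held 130 tags with control shRNA, 240 with shRNA5 and 405 with shRNA7, and 197 tags without and 192 with doxycycline. The summits lay 30, 9 and 82 bp inside RPPH1 in the hairpin arm and 42 and 41 bp inside it in the doxycycline arm. They were thus 212 to 285 bp from the PARP2 start. All 5 peaks covered both RPPH1 and the PARP2 start, and 26.9% to 49.1% of their length lay in PARP2. The peak was also dense for its list: 77.9 tags per kb of peak with control shRNA, 85.9 with shRNA5, 142.4 with shRNA7, 98.2 without and 91 with doxycycline. Of the peaks of each list, 94% to 99.5% were no denser. The DNA had been sheared to fragments longer than the 203 bp between the RPPH1 and PARP2 starts. The long non-coding RNA ENSG00000259001, on the strand of RPPH1, starts 273 bp before it and contains it. Signal from RPPH1, PARP2 and ENSG00000259001 cannot be told apart in these lists.

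At RN7SL1, the summits lay close to the RPS29 start in 4 lists. From that start, each peak reached further away from RN7SL1 than towards or across it. The peak held 118 tags with control shRNA, 629 with shRNA5 and 955 with shRNA7, and 251 tags without and 301 with doxycycline. In 4 lists the summit lay 18 to 38 bp from the RPS29 start and 218 to 238 bp before RN7SL1. With shRNA7 the summit lay 3728 bp before RN7SL1, inside RPS29, in a peak of 7926 bp. That peak scored 3100, and its score percentile in the list was 100. All 5 peaks lay wholly inside the annotated RPS29 gene. The RN7SL1 sequence itself could hold almost no uniquely placed tag, and its part in the summit positions was not tested.

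RN7SL2, with no coding start close by, had peaks in 4 lists, each with fewer tags than that of RN7SL1. It held 170 tags with shRNA5 and 263 with shRNA7, with no peak for control shRNA nearer than 29270 bp. Without doxycycline it held 66 tags, and with doxycycline 72 tags in 2 peaks of 32 and 40. The summits lay 915 bp past the start with shRNA5, 176 bp before it with shRNA7, 125 bp before it without doxycycline, and 1084 bp past and 351 bp before it with doxycycline. In 3 of the 4 lists 1 summit was thus on the upstream side, where ENSG00000278002 starts. Fold enrichment, the ratio of peak height to local background, was 5.68 to 8.64 in 3 of these lists and 21.2 without doxycycline. The smallest peak with control shRNA held 35 tags, but this is not a limit of detection. In that list the RMRP peak held 64 tags and scored 51.24, close to the lowest score of 50. A signal at RN7SL2 that did not reach the caller's limit would not have been listed there.

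VTRNA1-1, also away from coding starts, had a peak on its own start. It held 87 tags with control shRNA, 579 with shRNA5 and 694 with shRNA7, none without doxycycline and 36 with doxycycline. The summit lay 75 bp before the gene with control shRNA, 112 bp with shRNA5 and 42 bp with doxycycline. With shRNA7 it lay 1950 bp before it. The peak was 1556 bp long with control shRNA, and 8481 and 9573 bp with shRNA5 and shRNA7, of which 38.1% and 47.2% lay in the ZMAT2 gene. Tags per kb of peak were 55.9 with control shRNA, 68.3 with shRNA5 and 72.5 with shRNA7. Without doxycycline the nearest peak, of 21 tags, ended 4569 bp away. In 3 of the 4 lists the summit thus lay close to both VTRNA1-1 and the start of ENSG00000292256, 60 bp before the gene, and these cannot be told apart here.

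Over the 4 genes with a coding start within 1 kb, 12 of 20 summits lay nearer to the coding start and 8 nearer to the RNA gene. The 8 were the 5 of RPPH1 and 3 of RMRP. The 12 include the RN7SL1 summit with shRNA7, which was 3528 bp from the RPS29 start. All 20 peaks covered the coding start and 18 covered the start of the RNA gene. The 2 that did not were those of RN7SK in the doxycycline arm. In these 4 pairs the starts lie 200 to 336 bp apart, which is about the length of the sheared fragments or less. A summit nearer to 1 start therefore does not assign the signal to that start. At RN7SL2 and VTRNA1-1, 8 of 9 peaks covered the start of the RNA gene.

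**Figure D2:**
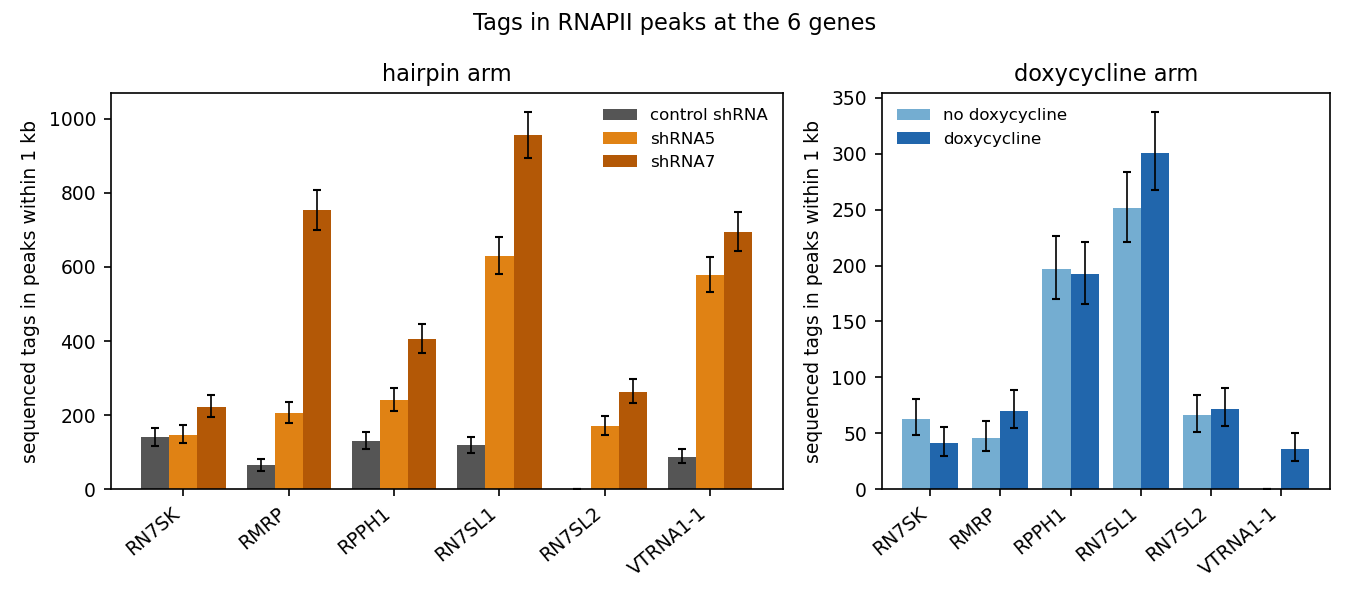
Sequenced tags in RNAPII peaks within 1 kb of each gene, in the hairpin arm (left) and the doxycycline arm (right), from 1 library per bar. Error bars are exact 95% Poisson intervals, the axes start at 0 and differ between panels, and a missing bar (RN7SL2 with control shRNA, VTRNA1-1 without doxycycline) stands for no peak. With shRNA7 RN7SL1 reaches 955 tags and RN7SK 223.

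Tags at the 6 genes were set beside those at the 3139 protein-coding genes with a start peak in all 5 lists, because the lists differ in the tags that their peaks hold. Over those coding genes the median log2 ratio of tags to control shRNA was 1.09 with shRNA5 and 1.90 with shRNA7, and the median was 0.05 for doxycycline over no doxycycline. Per kb of peak the medians were 0.41, 0.63 and 0.17. Peak length thus takes up part of the ratio of tags in the hairpin arm. The peaks at RN7SK, RMRP, RPPH1 and RN7SL1 covered the starts of GSTA4, CCDC107, PARP2 and RPS29 in every list. Those coding genes are thus among the 3139, and a ratio given for these RNA genes is that of a shared peak. It cannot be assigned to the RNA gene.

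The RN7SK peak, shared with GSTA4, had ratios below the interquartile range of the coding genes in all 3 comparisons. The RMRP peak, shared with CCDC107, had ratios above that range in all 3. For RN7SK the log2 ratio of tags was 0.07 with shRNA5 (95% counting interval −0.26 to 0.40), 0.67 with shRNA7 and −0.62 with doxycycline (−1.19 to −0.05). Of the coding genes 2%, 2.6% and 8.9% had ratios no higher. For RMRP the log2 ratio was 1.69 with shRNA5 (1.28 to 2.09), 3.56 with shRNA7 (3.19 to 3.92) and 0.61 with doxycycline (0.07 to 1.14). Of the coding genes 78%, 88.3% and 89.9% had ratios no higher. Per kb of peak the RMRP percentiles were 97.4, 92.1 and 98.1, and those of RN7SK were 26.3, 25.2 and 24.7. The RMRP peak with control shRNA was close to the caller's limit, which makes the ratios to it depend on a weak peak.

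By tags, RPPH1 lay within the interquartile range of the coding genes, and the remaining genes lay above the coding median or had no ratio. Per kb of peak the picture differed. The log2 ratio of RPPH1 was 0.88 with shRNA5, 1.64 with shRNA7 and −0.04 with doxycycline, at percentiles 36.5, 40.2 and 42 of the coding genes. Per kb of peak its log2 ratios were 0.14, 0.87 and −0.11, at percentiles 14.5, 77.2 and 18.3, which is outside the interquartile range in each comparison. By tags, RN7SL1 had 2.41 with shRNA5, 3.02 with shRNA7 and 0.26 with doxycycline, at percentiles 92.7, 79.5 and 70. Per kb of peak it was at percentiles 29.5, 66.3 and 39.2, so it was below the coding median with shRNA5 and with doxycycline. VTRNA1-1 had 2.73 with shRNA5 (percentile 95) and was at percentile 79 with shRNA7. Per kb of peak, VTRNA1-1 was at percentiles 31.4 and 22.4, so its longer peaks carried the larger tag counts. With shRNA5 and shRNA7, 38.1% and 47.2% of the peak lay in ZMAT2, so the VTRNA1-1 ratios cannot be assigned to that gene alone. RN7SL2 had a ratio only with doxycycline, 0.13 (−0.36 to 0.61). Both hairpin ratios share the control shRNA list, and none of these differences was tested.

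**Figure D3:**
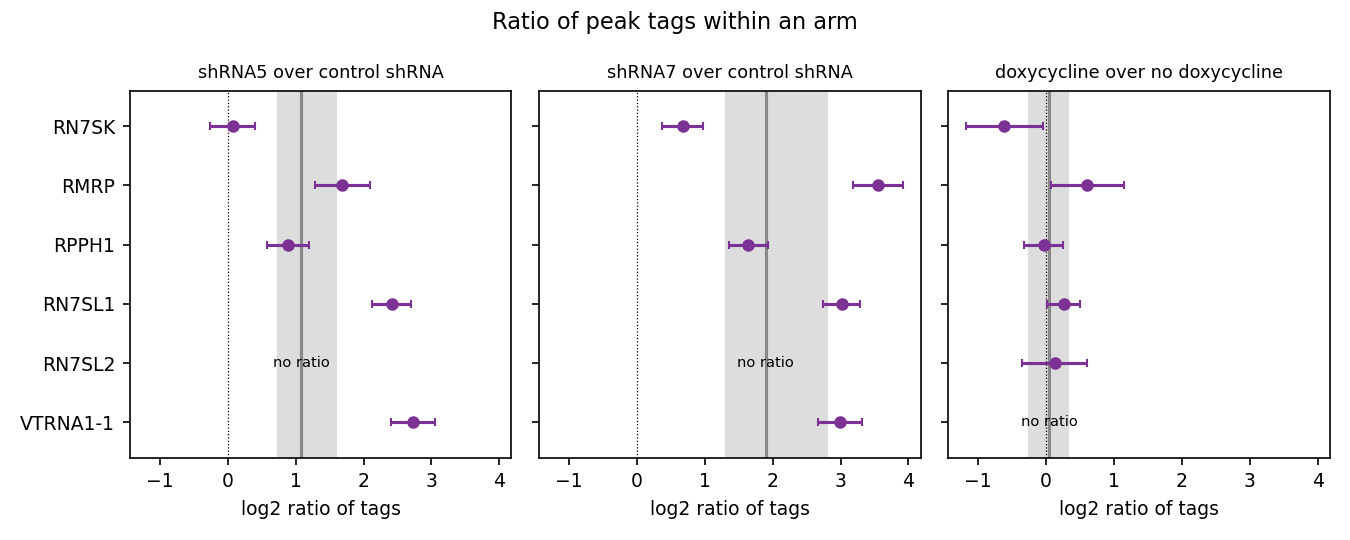
Log2 ratio of tags in peaks for each gene, by comparison, with 95% counting intervals. Grey bands are the interquartile range of 3139 coding genes with a start peak in all 5 lists and the grey line their median, and RN7SK lies below each band and RMRP above each. The peaks at RN7SK, RMRP, RPPH1 and RN7SL1 also cover a coding start, and those at VTRNA1-1 with shRNA5 and shRNA7 run into ZMAT2. "No ratio" marks a gene without a peak in 1 of the 2 lists.

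In each list a smaller share of other RNA polymerase III genes was near a peak than of the 6 genes, of which 4 have a coding start within 1 kb. Of 32 such genes 2 were near a peak with control shRNA, 8 with shRNA5, 9 with shRNA7, 26 without doxycycline and 25 with doxycycline. The 17 genes of the 5S ribosomal RNA cluster make up the higher counts in the doxycycline arm. They are near-identical repeats, with a median of 0% unique 36-base runs inside the gene. They had no peak within 1 kb in the hairpin arm. Many of them share a peak, so their counts are not separate. Without doxycycline, 1 peak of 570 tags served RNA5S1 to RNA5S4, and 1 of 1365 tags served RNA5S7 to RNA5S17. Without the 5S genes 2, 8, 9, 9 and 8 of 15 genes were near a peak. With the hairpin lists cut to equal length, 2 genes were near a peak in each of the 3. Leaving out peaks that touch a coding start, 1, 5, 6, 23 and 22 of all 32 genes were near a peak in the 5 lists. Of the 6 genes, 1, 2, 2, 1 and 2 were. In the doxycycline arm the order of the shares was then the other way, with the 5S genes included. The arms differ in library, cells and IgG background, which cannot be told apart here.

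The U6 genes RNU6-1 and RNU6-2, for the spliceosomal U6 RNA, were near a peak in all 5 lists. RNU6-1, whose nearest coding start (SKOR1) was 14529 bp away, held 92, 197 and 261 tags in the hairpin arm and 44 and 40 tags in the doxycycline arm. RNU6-2, 399 bp from TMEM259, held 67, 95 and 221 tags and then 129 and 120 tags. RNU6ATAC (the U6 RNA of the minor spliceosome), RNU6-9, RNY5 (a Y RNA gene) and RN7SL3 were near a peak in 4 lists, in each case all but control shRNA. RNU6-9 began 266 bp from a start of MED16 and RN7SL3 1093 bp from one of NEMF. The nearest coding starts to RNU6ATAC and RNY5 were 28482 and 57197 bp away. The neighbours RNU6-7 and RNU6-8 were near a peak in 3 lists and share the peaks near them with shRNA7. Within the U6 genes no 36-base run of RNU6-1, RNU6-2 or RNU6-9 was unique. BCYRN1, RNY3, RNY4 and both VTRNA1-2 and VTRNA1-3, which follow VTRNA1-1 on the chromosome, had no peak within 1 kb in any list. VTRNA1-2 and VTRNA1-3 differed from VTRNA1-1 in this although all their 36-base runs were unique as well.

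Spliceosomal and histone-processing snRNA genes that RNAPII transcribes served as a point of reference. All 16 annotated ones were near a peak in every list. With control shRNA their peaks held 360 (RNU4ATAC) to 974 (RNU1-1) tags. The genes RNU1-2, RNU1-3 and RNU1-4 for U1, which base-pairs with the splice donor, held 832, 897 and 930 tags, RNU2-2P held 796, and the 5 peaks at the members held 64 to 140. RNU2-2P and RNU7-1 began 0 and 1 bp from coding starts, of WDR74 and C12orf57. No 36-base run inside the U1 genes was unique, and none within 1 kb of RNU1-3 and RNU1-4 was either, so their tags cannot be assigned to 1 copy. In RNU4ATAC, with 360 tags, each run was unique. RNU4-1 and RNU4-2 share 1 peak, of 903 tags. Of the 16, 2 held TATA in the upstream window (12.5%), as did 7 of the 32 other RNA polymerase III genes (21.9%).

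Annotated copies of these RNAs in the genome were near peaks at a lower share than short genes in general in each list. Of 3327 copies of 7SL, 7SK, U6, Y RNA, RMRP and RPPH1, 1.68% were near a peak with control shRNA, 6.13% with shRNA5, 9.77% with shRNA7, 7.51% without doxycycline and 5.26% with doxycycline. Of the 294 copies of 7SK, 1.02% to 4.08% were near a peak, and of the 845 copies of 7SL 1.89% to 11.4%. Not every family was lower. Without doxycycline the share was 10.8% both for 7SL copies and for short genes. With shRNA7 it was 12.2% for the 855 Y RNA copies and 12% for short genes. The 37 copies near a peak in all 5 lists included RN7SL657P, RNU6-387P, RN7SL473P and RN7SL600P on chr1 and a Y RNA copy and RN7SL373P on chr10. Of these 37, 14 had a coding start within 1 kb.

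**Figure D4:**
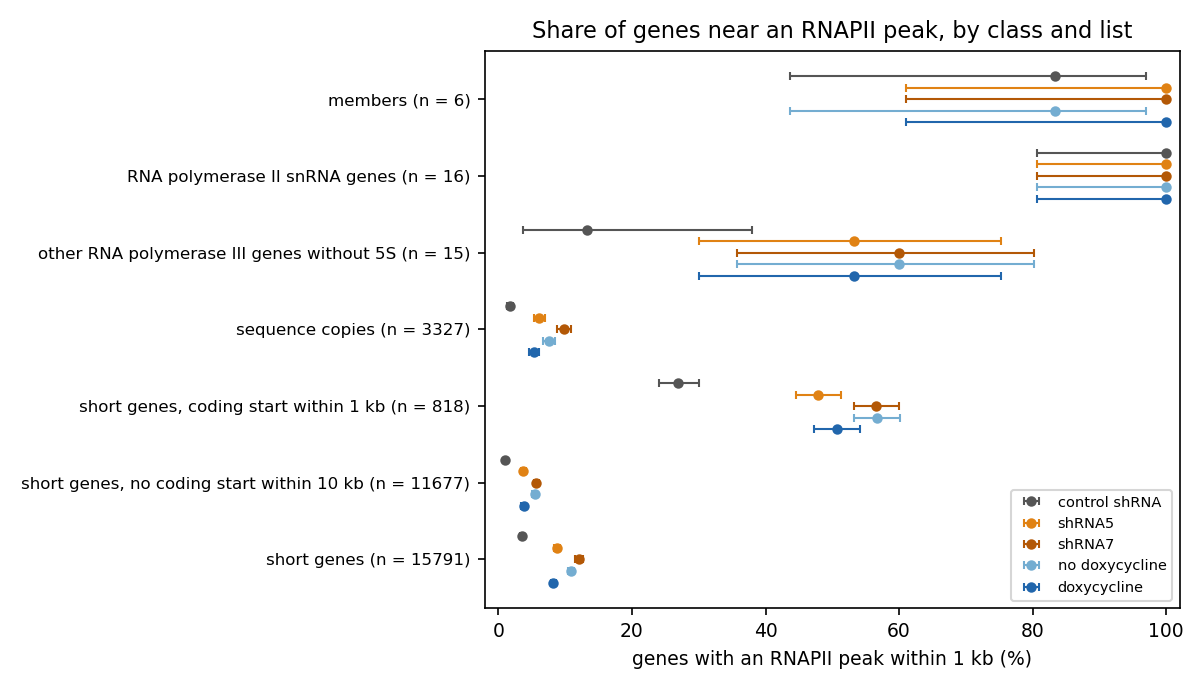
Percentage of genes with an RNAPII peak within 1 kb, by class of gene and by list, with 95% Wilson intervals. The 6 members and the 16 RNAPII snRNA genes lie at 83.3% to 100%, short genes with a coding start within 1 kb at 26.9% to 56.7%, and short genes with none within 10 kb at 0.985% to 5.69%.

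Protein partners of the 6 RNAs, and the RNA polymerase III machinery, are made by RNAPII and had start peaks in most lists. A peak within 500 bp of a start was found for 28 of 55 such genes with control shRNA, 48 with shRNA5, 51 with shRNA7, 54 without doxycycline and 50 with doxycycline. With the hairpin lists cut to the 5287 strongest peaks, the counts were 26 with shRNA5 and 18 with shRNA7, below the 28 of control shRNA. Over all 19794 protein-coding genes the shares were 17.3%, 44.5%, 52.9%, 57% and 48.2%. In all 5 lists, 26 of the 55 had a start peak, against 15.9% of all coding genes. The higher share describes this list of genes and was not tested.

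Among the partners of 7SK, HEXIM1 and HEXIM2 (the inhibitors of P-TEFb), MEPCE (the 7SK capping enzyme), and CCNT1 and CCNT2 (the cyclins of P-TEFb) had start peaks in all 5 lists. HEXIM1 held 685 tags with control shRNA, 1091 with shRNA5 and 3817 with shRNA7, and 571 without and 635 with doxycycline. The shRNA7 peak of HEXIM1 was shared with HEXIM2. LARP7, which binds the 3′ end of 7SK, had a start peak in 4 lists, and CDK9, the kinase of P-TEFb, in 3.

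Of the 10 protein genes of RNase P and RNase MRP, 4 had a start peak with control shRNA, 9 with shRNA7 and 10 in each of the other lists. POP5, POP7 and RPP21 had one in all 5. Of the 6 genes of the signal recognition particle, SRP9, SRP54 and SRP72 had a start peak in all 5 lists, and all 6 had one in each list other than control shRNA. SRP9 held 510, 761 and 1034 tags in the hairpin arm and 228 and 323 in the doxycycline arm. Of the vault protein genes, TEP1 had a start peak in all 5 lists, MVP in all but the doxycycline list and PARP4 in all but control shRNA.

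In the RNA polymerase III machinery, 14 of 29 genes had a start peak with control shRNA, 23 with shRNA5, 26 with shRNA7, 28 without doxycycline and 25 with doxycycline. SNAPC2, a SNAPc subunit, had none in any list. POLR3A, which encodes the largest subunit, held 46, 103 and 100 tags in the hairpin arm and 46 and 56 tags in the doxycycline arm.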

How the data were processed

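RNAPII was measured by ChIP-seq in 5 libraries, each the 1 library of its group, and 4 IgG libraries were the background. The submitters' processing notes name CASAVA 1.8, Bowtie 0.12.7 and MACS 1.4.2 on hg19 (GRCh37). The antibody recognised all forms of RNAPII, per the study's methods. The deposited count of tags per peak was not normalised by the authors. The authors' significance score (−log10 of p, times 10), fold enrichment ratio over background and FDR in percent were used as deposited. The 6 members and all gene lists were chosen with earlier results of these data known.

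GENCODE genes on GRCh37 were used. Start and end were widened by 1000 bp for genes and 500 bp for coding starts. RPPH1 and RN7SL1 were placed with BLAST 2.17.0, and RNU2-1, RNU2-2, RNU11 and RNU12 were not found under these names in the annotation. Ratios of tags were computed within an arm with a normal 95% counting interval. No test was possible with 1 library per group. Overlaps (Python 3.11.15, pandas 2.3.3, pysam 0.24.0) were tested on simulated data. All members were named, other RNA genes by number of lists with a peak, partner genes mainly where a start peak was in all 5 lists or none, and copies as the first 6 by position with a peak in all 5. The other RNA polymerase III genes without a peak, the 5S genes, LARP7, CDK9, SRP9, SRP54, SRP72, TEP1, MVP, PARP4, POLR3A and SNAPC2 were named after their values were seen. Alternatives were stricter peaks (score from 100 up, FDR up to 5%, or enrichment from 10 up), equally long lists within an arm, direct overlap, summits in place of peaks, and leaving out peaks at coding starts.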

Additional observations from a re-analysis of the deposited data

How the results depend on the processing

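Of 175 recomputed counts, 137 stayed within 1.5 times the reported one and 38 were lower. No count was higher by more than 1.5 times. The cause was not tested. For the 6 genes, leaving out peaks that touch a coding start left 1 gene with control shRNA (VTRNA1-1), 2 with shRNA5, 2 with shRNA7, 1 without doxycycline (RN7SL2) and 2 with doxycycline. A score of at least 100 left 3 with control shRNA (RMRP, RN7SL2 and VTRNA1-1 had none), and fold enrichment of at least 10 left 3 with doxycycline. When the hairpin lists were cut to 5287 peaks, 5 genes were left with shRNA5 (without RN7SK) and 4 with shRNA7 (without RN7SK and RN7SL2), so the presence of RN7SL2 with shRNA7 depends on the length of the list. For the other RNA polymerase III genes, the score limit left 1 with control shRNA and 5 with shRNA5, fold enrichment 4 with shRNA5 and 3 with doxycycline, equal length 2 with shRNA5 and 2 with shRNA7, summits 12 without doxycycline, and leaving out coding starts 1 with control shRNA and 5 with shRNA5. Without the 5S genes, an alternative chosen after seeing the data, 9 and 8 remained in the doxycycline arm. For the copies, the score limit left 30, 133, 96 and 84 with control shRNA, shRNA5, no doxycycline and doxycycline. Fold enrichment left 67, 115 and 98 with shRNA5, shRNA7 and doxycycline, and equal length 78 and 98 with the 2 hairpins. Overlap left 26, 86 and 63 with control shRNA, no doxycycline and doxycycline, summits 21, 94 and 136 in the hairpin arm, and leaving out coding starts 25 with control shRNA. For the partner genes, the score limit left 14 with control shRNA, fold enrichment 31 with shRNA5, and equal length 26 with shRNA5 and 18 with shRNA7, which turns the order against the 28 of control shRNA. The count of RNAPII snRNA genes stayed within 1.5 times of 16 under every alternative run. No paired analysis was possible because there was 1 library a group, and for the same reason none could be left out. Signal that did not reach the limit of the peak caller is not seen in these data. The smallest listed peak held 35 tags with control shRNA, 27 with shRNA5 and 26 with shRNA7. A site with more tags than these can also be missing from a list, since the score depends on the background.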
